A study of Mus musculus with 69 samples.

Results

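Cyp27b1, Cyp24a1, Cyp2r1, Vdr, Kl and S100g make, break down, sense and answer to active vitamin D. Their RNA was followed here in pulldowns aimed at collecting duct cells of mouse kidney after an ischemic and a volume-depletion stimulus. The genes were selected by symbol from the count table, 6 of the 24411 genes in it, and Cyp27b1 was chosen because its RNA went in opposite directions after the 2 stimuli. Its values in the injury comparisons of both sexes, and in differences between such responses, are therefore given as a description with no test. The other 5 genes were chosen for their place in the pathway, with earlier results of these data known.

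The mice carried uracil phosphoribosyltransferase (Uprt) in the Rosa26 locus behind a floxed stop. Hoxb7Cre turned it on in the collecting duct, and Atp6v1b1Cre (written Atp6b1v1Cre in the labels) in intercalated cells and in cells with features of both collecting duct types. All mice received 4-thiouracil (4-TU) at 430 mg/kg intraperitoneally 4 hours before the kidneys were taken, so that RNA made in that window in Uprt-expressing cells could be biotinylated and pulled down. Control mice had no injury. iAKI mice had both renal pedicles clamped for 10 minutes and their RNA was labeled 24 hours later, and vAKI mice were kept without food and water for 72 hours. The 48 pulldown libraries were divided into Hoxb7Cre males of 5.5 months (Control, n = 4; iAKI, n = 4; vAKI, n = 3), Hoxb7Cre females of that age (n = 4, 3 and 4), Atp6v1b1Cre males (n = 4, 3 and 4), Atp6v1b1Cre females (n = 4, 3 and 3), and controls of 3 months (2 Hoxb7Cre females and 3 Atp6v1b1Cre males). A further 21 libraries held total kidney RNA of control mice of both genotypes, 8 males and 8 females of 5.5 months and 3 males and 2 females of 3 months.

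The main form of vitamin D in blood, calcidiol, is made by 25-hydroxylases such as Cyp2r1, chiefly in liver. In the kidney the mitochondrial enzyme Cyp27b1 turns calcidiol into the active hormone calcitriol and Cyp24a1 degrades both. Parathyroid hormone raises Cyp27b1 and lowers Cyp24a1, and FGF23 acting through an FGF receptor and its co-receptor Klotho (Kl) does the reverse. Calcitriol binds the nuclear receptor Vdr, which pairs with RXR at the DNA, induces Cyp24a1 and calcium-handling genes such as S100g (a small calbindin that buffers calcium in transporting cells), and represses Cyp27b1. Renal Cyp27b1 is best known from the proximal tubule, and Kl, Vdr and S100g from the distal tubule.

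Libraries held 12.6 to 29.8 M counts in the pulldowns and 17.7 to 30.3 M in total RNA, and all 6 genes passed the low-count filter that left 21175 genes. Levels are given as CPM (counts scaled to library size, with TMM factors), and a gene is said to have risen or fallen where edgeR's quasi-likelihood test gave an adjusted p under 0.05 over all 21175 genes. Error terms on log2 fold changes are standard errors. Each library is taken as 1 mouse, and p-values measure the spread between these libraries. Hoxb7Cre control pulldowns carried the 6 principal cell markers at a summed 1056 to 3352 CPM against 653 to 1169 CPM in total RNA, and Atp6v1b1Cre control pulldowns carried the 6 intercalated markers at 633 to 1548 CPM against 369 to 644 CPM. Proximal tubule RNA was still present, since its 9 markers summed to 2297 to 5584 CPM in control pulldowns and 14056 to 23787 CPM in total RNA, with none of the 9 at 0. In pulldowns, as in any bulk sample, fewer cells of a type and less RNA per cell cannot be told apart.

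Cyp27b1 (ENSMUSG00000006724) spans chr10:127048250-127053006 on the plus strand of GRCm38, with 10 exons and 2574 exonic bases that overlap no other gene in the GENCODE annotation. S100g lies on chrX:162961992-162964599 on the minus strand, with 3 exons and 480 exonic bases, inside an intronic stretch of the opposite-strand gene Ctps2. The 250 bases before each RefSeq start on GRCm38.p6 are shown because Cyp27b1 is the gene chosen for its response and S100g is the gene named for its vitamin D dependence. Capitals mark the CCAAT box of Cyp27b1 (ATTGG on the strand shown) and, in S100g, the core motif of VDR and RXR, searched as AGGTCA, in a first variant as GGTTCA and in a further variant as AGTTCA, with complements.
Cyp27b1, chr10:127047996-127048245, plus strand: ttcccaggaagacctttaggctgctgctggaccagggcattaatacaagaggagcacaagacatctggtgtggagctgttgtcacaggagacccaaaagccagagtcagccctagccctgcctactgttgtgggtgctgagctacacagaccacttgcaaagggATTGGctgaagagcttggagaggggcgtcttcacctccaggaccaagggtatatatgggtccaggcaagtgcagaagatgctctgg
S100g, chrX:162964600-162964849, minus strand: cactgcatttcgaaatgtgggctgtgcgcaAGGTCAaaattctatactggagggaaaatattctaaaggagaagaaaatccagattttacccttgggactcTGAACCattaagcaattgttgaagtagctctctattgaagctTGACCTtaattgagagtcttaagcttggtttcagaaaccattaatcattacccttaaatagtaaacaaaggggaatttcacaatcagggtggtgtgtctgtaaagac

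The S100g window held 3 core motifs, at −220 to −215, −149 to −144 and −107 to −102 from the start, while the Cyp27b1 window held none of these letters and had its CCAAT box at −86 to −82. Of 32536 RefSeq windows of this length, 30.7% held at least 1 such core motif and 33.8% a CCAAT box, both strands searched. Neither window held the NR4A letters AAAGGTCA, found in 1.35% of windows, nor the cAMP-response core TGACG, found in 17.9%. These matches describe letters in a short stretch and say nothing of binding.

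Compared per length of exon, the members differed widely in male controls of 5.5 months. In total RNA S100g stood highest at 1096 ± 206 RPKM (SD, n = 8), followed by Kl at 114 ± 6.19, Cyp24a1 at 97.1 ± 33.98 and Vdr at 67.5 ± 12.1 RPKM. The activating enzymes were far lower, with Cyp27b1 at 6.99 ± 1.44 and Cyp2r1 at 0.698 ± 0.128 RPKM. Hoxb7Cre pulldowns put Cyp24a1 first (119 ± 44.3 RPKM, n = 4), then Vdr (66.7 ± 19.0), S100g (62.8 ± 12.6) and Kl (28.7 ± 7.71), and Atp6v1b1Cre pulldowns put S100g first (146 ± 57.1), then Vdr (84.1 ± 15.0) and Cyp24a1 (76.998 ± 32.4). The ranges of Cyp24a1, Vdr and S100g overlapped in each pulldown, as did Cyp24a1 with Kl and with Vdr in total RNA, so the order among them is not beyond their spread, whereas Cyp27b1 and Cyp2r1 were the lowest in all 3 kinds of RNA with no overlap with the rest.

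**Figure D1:**
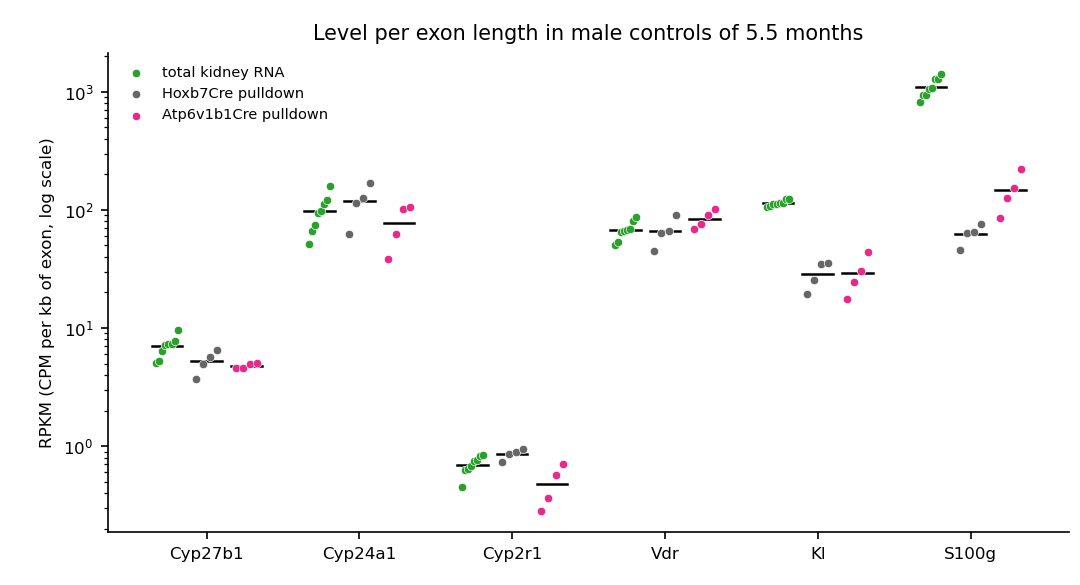
Level per exon length (RPKM, log scale) of each gene in male controls of 5.5 months. Points are libraries (8 of total RNA, 4 of each pulldown) and bars are means, and S100g and Kl sit lower in both pulldowns than in total RNA.

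Control pulldowns were compared with total kidney RNA to ask how much of each message is made in the labeled cells. Newly made RNA and standing RNA differ in kind as well as in cell type, and the labels do not say whether the total RNA came from the same mice. After adjustment for sex, S100g was 18.4-fold lower in Hoxb7Cre pulldowns (log2 fold change −4.20 ± 0.18, adjusted p = 3.4e-25) and 7.54-fold lower in Atp6v1b1Cre pulldowns (−2.92 ± 0.16, 2.95e-21). Kl was 4.24-fold and 3.67-fold lower (−2.08 ± 0.16, 2.84e-16, and −1.88 ± 0.15, 1.66e-15). In the libraries, S100g ran from 392 to 968 CPM in total RNA and Kl from 667 to 1241 CPM, while no control pulldown exceeded 138 CPM of S100g or 411 CPM of Kl, so the groups did not overlap for either gene. Vdr was higher in both pulldowns, by 0.29 ± 0.11 (adjusted p = 0.0155) and 0.48 ± 0.10 (7.32e-05), with overlapping libraries. In males alone the Vdr difference was 0.11 (adjusted p = 0.619) and 0.28 (0.0839).

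Cyp24a1 was 1.72-fold higher in Hoxb7Cre pulldowns than in total RNA (0.78 ± 0.27, adjusted p = 0.0109), a call lost in males alone (0.55, 0.179), and in Atp6v1b1Cre pulldowns the difference was −0.01 ± 0.27. Cyp2r1 was lower in Atp6v1b1Cre pulldowns (−0.39 ± 0.15, 0.0165) but not with mice of 5.5 months alone (−0.32, 0.122). Over 8 alternatives this Cyp2r1 value ran from −0.57 to −0.16, and 2 of them lost the call. Cyp27b1 did not pass in either pulldown (−0.44 ± 0.32 and −0.09 ± 0.30), with 95% intervals of −1.06 to 0.18 and −0.68 to 0.50. Control pulldowns and total RNA libraries are equal in number within each combination of driver, sex, age and run of library numbers. With these combinations as blocks, a fit added after seeing the data, Cyp27b1 was at −0.36 ± 0.22 (adjusted p = 0.150) in Hoxb7Cre and −0.11 ± 0.21 (0.663) in Atp6v1b1Cre pulldowns, and its mean was lower in the pulldowns than in total RNA in 6 of 6 Hoxb7Cre combinations (log2 ratio −0.51 to −0.12) and in 3 of 6 Atp6v1b1Cre combinations. Cyp24a1 was then at 0.43 ± 0.19 (0.044) and 0.37 ± 0.18 (0.0717). Thus 4 of 6 genes were called in each comparison, where 66.6% and 63.8% of all genes were called and the median gene stood 0.11 higher in the pulldowns.

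Between the drivers, S100g was the gene that differed, 2.44-fold higher in Atp6v1b1Cre than in Hoxb7Cre control pulldowns (1.29 ± 0.17, adjusted p = 9.82e-08), in a comparison that called 9.93% of genes. Its level was 40.7 to 138 CPM in the 11 Atp6v1b1Cre controls and 21.99 to 52.3 CPM in the 10 Hoxb7Cre controls. The 5 distal convoluted and connecting tubule markers, from the segments in which S100g is best known, summed to 267 to 1480 CPM in Atp6v1b1Cre controls and 265 to 869 CPM in Hoxb7Cre controls, and their part in the difference was not tested. With males alone Cyp2r1 was also lower in the Atp6v1b1Cre pulldowns (−0.87, adjusted p = 0.0106, against −0.47, 0.069 in both sexes). Over 7 alternatives this Cyp2r1 value ran from −0.87 to −0.05, and 3 of them called it.

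Within total kidney RNA, Kl was lower in females than in males (log2 difference −0.43 ± 0.06, adjusted p = 1.09e-06), with 667 to 908 CPM in the 10 females and 996 to 1241 CPM in the 11 males and no overlap. S100g was higher in females (0.41 ± 0.12, 0.00818), with 521 to 968 CPM against 392 to 908 CPM and many libraries in common. These were 2 of 6 genes in a comparison that called 32.9%. With age, S100g was higher at 3 than at 5.5 months (0.54 ± 0.13, adjusted p = 0.0439, where 1.27% of genes were called), but this call was lost with the driver genotype as a term (0.53, 0.0602) or the runs of library numbers as a covariate (0.27, 0.171). Cyp27b1 in total RNA lay between 12.9 and 24.6 CPM in males of 5.5 months and between 3.46 and 41.3 CPM in females of that age, and the female minus male difference was −0.30 ± 0.35. The 3 lowest of these females, at 3.46, 4.32 and 5.35 CPM, are the 3 in the last run of library numbers.

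The first question on injury was how Cyp27b1 in the pulldowns answers ischemia and volume depletion. In Hoxb7Cre males its level was 14.7, 16.8, 9.53 and 12.7 CPM in controls, 6.33, 5.68, 9.73 and 4.05 CPM in iAKI, and 186, 104.6 and 97.3 CPM in vAKI. Atp6v1b1Cre males had 11.8, 12.9, 13.1 and 11.8 CPM in controls, 2.51, 3.42 and 4.15 CPM in iAKI, and 39.5, 59.4, 76.5 and 48.05 CPM in vAKI. Every male vAKI library was above, and every male iAKI library except 1 of Hoxb7Cre (9.73 CPM, against a lowest control of 9.53 CPM) below, the controls of its driver.

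The fitted change in vAKI was 9.67-fold up in Hoxb7Cre males (log2 fold change 3.27 ± 0.27) and 4.56-fold up in Atp6v1b1Cre males (2.19 ± 0.25). In iAKI it was 2.07-fold down (−1.05 ± 0.26) and 3.71-fold down (−1.89 ± 0.29), so that vAKI and iAKI males lay 20.1-fold and 16.9-fold apart. These are the values that chose the gene. The 3 Atp6v1b1Cre control males of 3 months had 20.2, 38.2 and 7.29 CPM, wider than the controls of 5.5 months, and with them in the fit the Atp6v1b1Cre values were −2.29 in iAKI and 1.79 in vAKI.

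**Figure D2:**
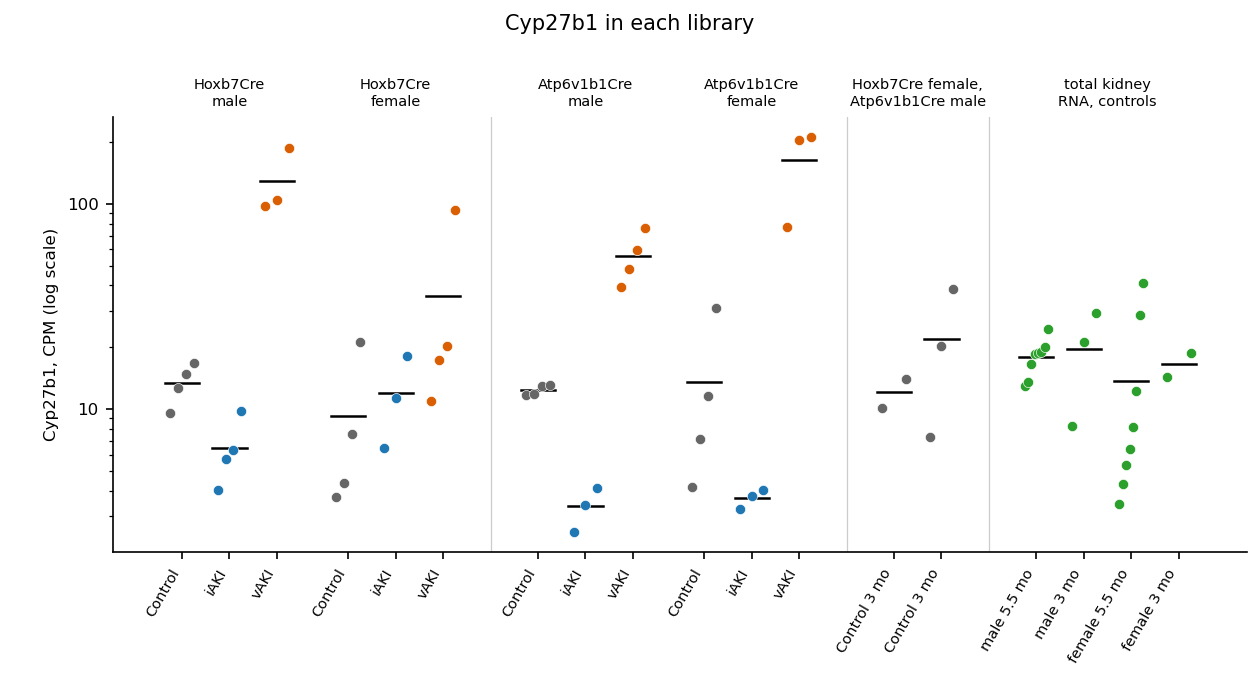
Cyp27b1 level (CPM, log scale) in each library, by driver, sex, treatment and age. Points are libraries and bars are group means, and among pulldowns the vAKI libraries lie highest except for 3 of the Hoxb7Cre females at 11.0 to 20.3 CPM.

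In Hoxb7Cre males the 9 proximal tubule markers summed to 3400 to 5359 CPM in controls, 2143 to 4228 CPM in iAKI and 3590 to 4047 CPM in vAKI, so the vAKI sums lay within the control range. In Atp6v1b1Cre males (both ages of control) they summed to 2971 to 5584, 1686 to 2129 and 1935 to 5849 CPM, and the iAKI sums, like Cyp27b1, lay below all controls. Principal cell markers in Hoxb7Cre males summed to 2631 to 3352 CPM in controls, 946 to 1189 CPM in iAKI and 1061 to 1166 CPM in vAKI. None of these markers was at 0 in any group, and their part in the Cyp27b1 values was not tested.

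In Atp6v1b1Cre females Cyp27b1 was 11.6, 31.04, 7.12 and 4.17 CPM in controls, 3.26, 3.76 and 4.04 CPM in iAKI, and 211, 77.4 and 204 CPM in vAKI. All vAKI libraries stood above all controls and all iAKI libraries below them. The fitted value in vAKI was 12.1-fold up (log2 fold change 3.60 ± 0.73) and lay between 3.30 and 4.42 with each library left out in turn. The iAKI value was −1.90 ± 0.76, with −2.20 without Control replicate 13 and −1.08 without Control replicate 8 as its extremes when each library was left out, and vAKI and iAKI lay 45.2-fold apart (5.50 ± 0.90). With replicate number as a block, although nothing in the labels says that these numbers pair mice, the vAKI and iAKI values were 1.81 and −3.49.

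Hoxb7Cre females had 7.56, 21.3, 4.35 and 3.74 CPM in controls, 18.0, 6.47 and 11.3 CPM in iAKI, and 11.0, 20.3, 17.2 and 93.3 CPM in vAKI. Their groups overlapped, and 1 vAKI library stood far above the other 3. The fitted values were 1.94 ± 0.67 in vAKI and 0.38 ± 0.70 in iAKI, and the vAKI value was 0.79 without the high library, replicate 5. Of these controls only the one at 7.56 CPM shares the run of library numbers (1 to 40) with the injured Hoxb7Cre females, and the iAKI value with that run as a covariate was −0.22. The female minus male difference of the Cyp27b1 response is given without a test: −1.35 ± 0.76 for vAKI and 1.41 ± 0.78 for iAKI in Hoxb7Cre, and 1.42 ± 0.76 and −0.02 ± 0.84 in Atp6v1b1Cre.

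Cyp24a1, which inactivates what Cyp27b1 makes, varied widely between libraries. It overlaps Pfdn4 of the opposite strand by 83 of its 3560 exonic bases (chr2:170482708-170497145, minus strand). The study's methods name HTSeq's default settings, under which reads are counted by strand, while the strand setting of the library kit is not given in the sources used here, so reads of that stretch may not be told apart. In Atp6v1b1Cre males it was 363, 375, 136 and 223 CPM in controls, 61.2, 35.7 and 196 CPM in iAKI, and 1944, 1187, 179 and 101.5 CPM in vAKI. The vAKI libraries fell into a high and a low pair along the runs of library numbers: libraries 17 and 18, at 1944 and 1187 CPM, stood above both controls of libraries 1 to 40 (363 and 375 CPM), whereas libraries 68 and 69, at 179 and 101.5 CPM, lay beside the controls of libraries 65 to 85 (136 and 223 CPM). Over all libraries neither injury passed (iAKI −1.49 ± 0.73, adjusted p = 0.213; vAKI 1.66 ± 0.66, 0.0955).

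Within libraries 1 to 40 alone both did (iAKI −2.94, adjusted p = 0.00105; vAKI 2.08, 0.0104), and vAKI also passed without vAKI replicate 7 (2.02, 0.0367) or with the controls of 3 months added (1.74, 0.0255). With the run of library numbers as a covariate neither injury passed (−1.34 in iAKI, adjusted p = 0.235, and 1.54 in vAKI, 0.101). The iAKI library numbered 65, at 196 CPM, lay between the controls of its run. The vAKI against iAKI difference of Cyp24a1 in these males was 8.83-fold (3.14 ± 0.78, adjusted p = 0.0041) and passed with each library left out (2.34 to 4.13). Within libraries 65 to 85 the order was the reverse. There iAKI library 65, at 196 CPM, stood above vAKI libraries 68 and 69, at 179 and 101.5 CPM. Leaving out 1 library at a time cannot show this dependence on the run. In Hoxb7Cre males Cyp24a1 was 222 to 606 CPM in controls, 203 to 558 CPM in iAKI and 331 to 830 CPM in vAKI, overlapping throughout (−0.28 ± 0.64 and 0.33 ± 0.69, neither called). Hoxb7Cre females had 480, 875, 216 and 179 CPM in controls and 39.3, 60.05 and 13.5 CPM in iAKI, without overlap, and the fit gave −3.53 ± 1.05 with an adjusted p of 0.0618. DESeq2 called this difference (−3.55, 0.00855), as did edgeR without any 1 of 4 libraries (adjusted p of 0.0365 without vAKI Hoxb7Cre female replicate 1, 0.0408 without vAKI Hoxb7Cre female replicate 5, 0.0382 without Control Hoxb7Cre female replicate 1 and 0.0441 without iAKI Atp6v1b1Cre female replicate 6). With the run of library numbers as a covariate the iAKI value in Hoxb7Cre females did not pass (−4.10, adjusted p = 0.140), and 2 of 7 alternatives called it. Hoxb7Cre vAKI females ranged from 12.7 to 628 CPM. Atp6v1b1Cre females had 394, 181, 312 and 62.7 CPM in controls, 34.7, 47.4 and 153 CPM in iAKI and 358, 869 and 69.7 CPM in vAKI, with overlap and neither injury called (−1.62 ± 0.95 and 0.87 ± 0.90). Their vAKI against iAKI difference of Cyp24a1 was 2.49 ± 1.024 with an adjusted p of 0.0664, called by DESeq2 (2.54, 0.0407) and without any 1 of 3 of the 21 libraries (adjusted p 0.0321 to 0.324 over all 21). Within libraries 65 to 85 the order was the reverse in these females too, with iAKI at 153 CPM and vAKI at 69.7 CPM.

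Cyp2r1, a microsomal enzyme that makes calcidiol (chr7:114549682-114562972), was scarce throughout, at 0.603 to 3.46 CPM from 10 to 64 counts a library. In Hoxb7Cre males it was 1.81, 1.55, 1.88 and 2.02 CPM in controls and 0.654, 0.724 and 1.19 CPM in vAKI. All vAKI libraries were below all controls, a 2.1-fold fall (−1.07 ± 0.32, adjusted p = 0.0105) that was lost without vAKI replicate 4 (−0.92, 0.0539) or replicate 6 (−0.95, 0.0561), or with both sexes in the fit and sex as a covariate (−0.51, 0.129). In Atp6v1b1Cre males it was 1.29 to 1.72 CPM in iAKI and 0.629 to 0.895 CPM in vAKI, a difference of −1.02 ± 0.31 (adjusted p = 0.0167) that passed with each library left out but not within libraries 1 to 40 (−0.99, 0.0599), while neither injury was called against controls. In Hoxb7Cre males Cyp2r1 was 1.14, 1.89, 1.40 and 2.03 CPM in iAKI, and the vAKI against iAKI difference of −0.92 ± 0.32 (adjusted p = 0.0272) was lost without iAKI replicate 5 or 7 or vAKI replicate 4 or 6 (−0.75 to −0.82, adjusted p 0.0711 to 0.118). In Hoxb7Cre females it was 0.790 to 1.77 CPM in controls, 2.09 to 3.46 CPM in iAKI and 1.12 to 1.87 CPM in vAKI, the iAKI libraries above all others. Neither iAKI against controls (0.99 ± 0.33, adjusted p = 0.0872) nor vAKI against iAKI (−0.95 ± 0.34, 0.105) passed, and both did with DESeq2 (0.0342 and 0.0432), the former also without Control replicate 1 (0.0402). In Atp6v1b1Cre females vAKI was called below iAKI (−1.04 ± 0.38, 0.0383, lost without any 1 of 5 libraries, the value then −0.77 to −1.23 and the adjusted p 0.0504 to 0.175). Those 5 were iAKI replicates 2 and 6 and vAKI replicates 3, 4 and 5, and the call was also lost with the replicate block (−1.19, 0.217) and with DESeq2's size factors (−0.98, 0.0508).

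Vdr, the calcitriol receptor (chr15:97854425-97910630, minus strand, 5650 exonic bases), rose in vAKI in males of both drivers and in Atp6v1b1Cre females, and was not called in Hoxb7Cre females. In Hoxb7Cre males it was 515, 377, 253 and 363 CPM in controls, 517, 352, 532 and 407 CPM in iAKI, and 576, 748 and 726 CPM in vAKI. The vAKI libraries lay above all controls and all iAKI libraries, 1.82-fold over controls (0.86 ± 0.21, adjusted p = 0.00217, and 0.72 to 1.05 with each library left out, all passing), while iAKI did not pass (0.28 ± 0.19). In Atp6v1b1Cre males it was 510, 577, 387 and 427 CPM in controls, 363, 289 and 364 CPM in iAKI, and 828, 834, 642 and 545 CPM in vAKI. The rise in vAKI was 1.52-fold (0.60 ± 0.19, adjusted p = 0.0383), with 1 vAKI library inside the control range, and was lost without any 1 of 6 libraries (0.51 to 0.65, adjusted p 0.0578 to 0.123), namely Control replicates 6, 10 and 11 and vAKI replicates 1, 2 and 6. It was also lost with the replicate block (0.38, 0.435), within libraries 1 to 40 (0.61, 0.0748) and in a fit of the vAKI and control libraries alone (0.59, 0.081). The iAKI value was −0.50 ± 0.21 (0.146).

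Atp6v1b1Cre females showed Vdr at 678, 585, 525 and 471 CPM in controls, 380, 330 and 402 CPM in iAKI, and 985.3, 974 and 801 CPM in vAKI, 3 levels with no overlap. The vAKI value was 0.71 ± 0.24 (adjusted p = 0.0472), just inside the threshold, and leaving out 13 of the 21 female libraries put it outside (0.63 to 0.80, adjusted p 0.0503 to 0.126). Those 13 were, of Atp6v1b1Cre, Control replicates 8, 12 and 13, iAKI replicates 2 and 3 and vAKI replicates 3, 4 and 5, and of Hoxb7Cre, Control replicates 9 and 10, iAKI replicates 1 and 2 and vAKI replicate 2. The call was also lost with the replicate block (0.38, 0.911), with no count filter (0.71, 0.0541) and with the run of library numbers as a covariate (0.64, 0.0663). The vAKI against iAKI difference of Vdr was 1.10 ± 0.21 (adjusted p = 5.52e-04) in Atp6v1b1Cre males and 1.33 ± 0.27 (9.34e-04) in Atp6v1b1Cre females. Both passed with each library left out, and the female call was lost with the replicate block (1.25, 0.063). In Hoxb7Cre it was 0.59 ± 0.21 (0.0314) in males, lost without iAKI replicate 5 or 7 or vAKI replicate 6 or 7 (0.50 to 0.54, adjusted p 0.0794 to 0.11), and 0.89 ± 0.25 (0.0488) in females, which passed with only 5 of the 21 libraries left out in turn and was lost with the replicate block (0.77, 0.256) or no count filter (0.89, 0.0554). Hoxb7Cre females otherwise had 420 to 574 CPM in controls, 244 to 389 CPM in iAKI and 309 to 824 CPM in vAKI, with neither injury called.

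Kl, the FGF23 co-receptor (chr5:150952607-150993817, plus strand, 9328 exonic bases), fell in vAKI in Hoxb7Cre males. Its level was 329, 324, 180 and 237 CPM in controls, 247, 210, 265 and 197 CPM in iAKI, and 123, 148 and 145 CPM in vAKI, so the vAKI libraries were below all others. The fall was 1.92-fold (−0.94 ± 0.30, adjusted p = 0.0152) and was lost without vAKI replicate 4 (−0.86, 0.0631), with the replicate block (−0.54, 0.0896) and with both sexes in the fit and sex as a covariate (−0.06, 0.930). The controls differed by run, 329 and 324 CPM in libraries 1 to 40, where all iAKI and vAKI libraries of this driver lie, and 180 and 237 CPM in libraries 65 to 85. With libraries 1 to 40 alone Kl was also lower in iAKI (−0.51, adjusted p = 0.0476).

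In Atp6v1b1Cre males Kl was 411, 282, 231 and 165 CPM in controls, 253, 194 and 152 CPM in iAKI and 290, 236.4, 119 and 129 CPM in vAKI, overlapping and not called (−0.46 ± 0.29 and −0.47 ± 0.27). With the run of library numbers as a covariate both passed (−0.55, adjusted p = 0.027, and −0.51, 0.0165). Over 10 alternatives the values ran from −1.34 to −0.07 in iAKI and −1.52 to −0.34 in vAKI, with 2 calls in each. In Hoxb7Cre females it was 201, 127, 131 and 113 CPM in controls, 269, 396 and 335 CPM in iAKI, and 273, 242, 318 and 121 CPM in vAKI. All iAKI libraries and 3 of the 4 vAKI libraries lay above these 4 controls, and neither injury passed the test. The Hoxb7Cre female controls of 3 months, which did not enter the test, had 196 and 253 CPM, the latter above the vAKI library at 242 CPM. The response to vAKI differed between the sexes in this driver by 1.67 ± 0.49 (female minus male, adjusted p = 0.0199, where 16.0% of genes were called), with the female value itself at 0.73 ± 0.35 (0.628) and −0.10 with the replicate block. The female iAKI value was 1.23 ± 0.38 (0.0674). It passed with DESeq2 (0.025), with only the 2 groups compared (0.0171) and without any 1 of 3 libraries (lowest adjusted p 0.0244), and it was 0.25 (1.0) with the replicate block. Of the 4 female controls in the test, the 1 in the run of libraries 1 to 40 was the highest, at 201 CPM. With the run as a covariate the female values were 0.72 in iAKI (adjusted p = 0.376) and 0.23 in vAKI (0.942). In the fit of both sexes, where males and females share the run's effect, the sex difference with that covariate was 1.59 ± 0.36 in vAKI (0.00373). The 4 thick ascending limb markers summed to 1341 to 3883 CPM in Hoxb7Cre female controls (both ages), 3787 to 5155 CPM in iAKI and 1730 to 3079 CPM in vAKI, and in Hoxb7Cre males to 1912 to 3334, 2045 to 2297 and 1072 to 1201 CPM. In these females the distal convoluted and connecting tubule markers summed to 265 to 869, 841 to 952 and 380 to 837 CPM, and the proximal tubule markers to 2547 to 5167, 4046 to 6109 and 3938 to 5194 CPM, and the part of these markers in the Kl values was not tested. In Atp6v1b1Cre females Kl was 101.1 to 144 CPM in vAKI, below all controls (154 to 397 CPM), with −1.07 ± 0.39 and an adjusted p of 0.0601. It passed with DESeq2 (0.04), with only the 2 groups compared (0.0269), with the run as a covariate (0.0229) and without any 1 of 4 libraries (lowest 0.0243), but not with the block (0.230). In iAKI it was 325, 466.3 and 110 CPM (0.25 ± 0.38, not called), and the vAKI against iAKI difference of −1.31 ± 0.41 (adjusted p = 0.0177) was lost without iAKI replicate 2 or 3 or vAKI replicate 4 or 5 (−0.86 to −1.26, adjusted p 0.0529 to 0.146) and with the replicate block (−1.11, 0.057).

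S100g, which buffers calcium on its way across the cell, had a lower mean in every injured group than in its controls. In Atp6v1b1Cre males it was 73.5, 40.7, 106.1 and 60.9 CPM in controls, 53.9, 27.1 and 29.7 CPM in iAKI, and 48.8, 44.6, 36.8 and 38.8 CPM in vAKI. It fell 1.92-fold in iAKI (−0.94 ± 0.25, adjusted p = 0.024) and 1.64-fold in vAKI (−0.72 ± 0.23, 0.0398), although the lowest control lay within both injured groups. Without Control replicate 10, the highest control, the values were −0.68 (0.0841) and −0.45 (0.207). The iAKI call was also lost without iAKI replicate 4 or 5 (−0.75 and −0.79), and the vAKI call without Control replicate 6 or vAKI replicate 2, 6 or 7 (−0.66 to −0.74). Within libraries 1 to 40 the values were −0.51 (0.260) and −0.30 (0.598), and in fits restricted to each pair of groups −0.93 (0.0938) and −0.73 (0.0947). The iAKI call was lost as well with the replicate block (−1.31, 0.0713) and with both sexes and sex as a covariate (−0.57, 0.0689).

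Hoxb7Cre males had S100g at 31.3, 21.99, 36.5 and 30.8 CPM in controls, 20.7, 19.2, 16.4 and 23.7 CPM in iAKI and 19.0, 20.9 and 23.3 CPM in vAKI, each injured group meeting only the lowest control. Neither passed (−0.58 ± 0.23, adjusted p = 0.153, and −0.51 ± 0.25, 0.126), and both did when only the groups compared entered the fit (0.043 and 0.0361). Hoxb7Cre females were alike, 27.9 to 49.2 CPM in controls, 16.9 to 22.95 CPM in iAKI (−1.07 ± 0.31, 0.056) and 17.2 to 30.9 CPM in vAKI (−0.83 ± 0.28, 0.411). Atp6v1b1Cre females had 82.97 to 138 CPM in controls, 59.4, 63.1 and 148 CPM in iAKI (−0.31 ± 0.30, 0.581) and 41.3 to 80.7 CPM in vAKI, below every control (−0.87 ± 0.30, 0.0513). The Hoxb7Cre iAKI value passed with DESeq2 (0.0128), the stricter count filter (0.049), only the 2 groups compared (0.0191) and without any 1 of 5 libraries (lowest 0.0178), but not with the run as a covariate (0.288). The Atp6v1b1Cre vAKI value passed with DESeq2 (0.0418), only the 2 groups compared (0.03) and without any 1 of 6 libraries (lowest 0.0222), but not with the run as a covariate (0.0682). The distal convoluted and connecting tubule markers had their lowest sums in vAKI in males. In Hoxb7Cre males they summed to 480 to 785 CPM in controls, 659 to 716 CPM in iAKI and 229 to 323 CPM in vAKI, and in Atp6v1b1Cre males to 267 to 1192, 676 to 1006 and 234 to 415 CPM. In Atp6v1b1Cre females the vAKI sums of 378 to 514 CPM lay below all controls (653 to 1480 CPM), as did those of the intercalated markers (788 to 1050 against 1206 to 1548 CPM), whereas in Hoxb7Cre females the distal sums in vAKI lay within the control range. Trpv5 and Calb1 belong to both this marker list and the calcium gene list below, and the markers' part in the S100g, Kl and Vdr values was not tested.

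**Figure D3:**
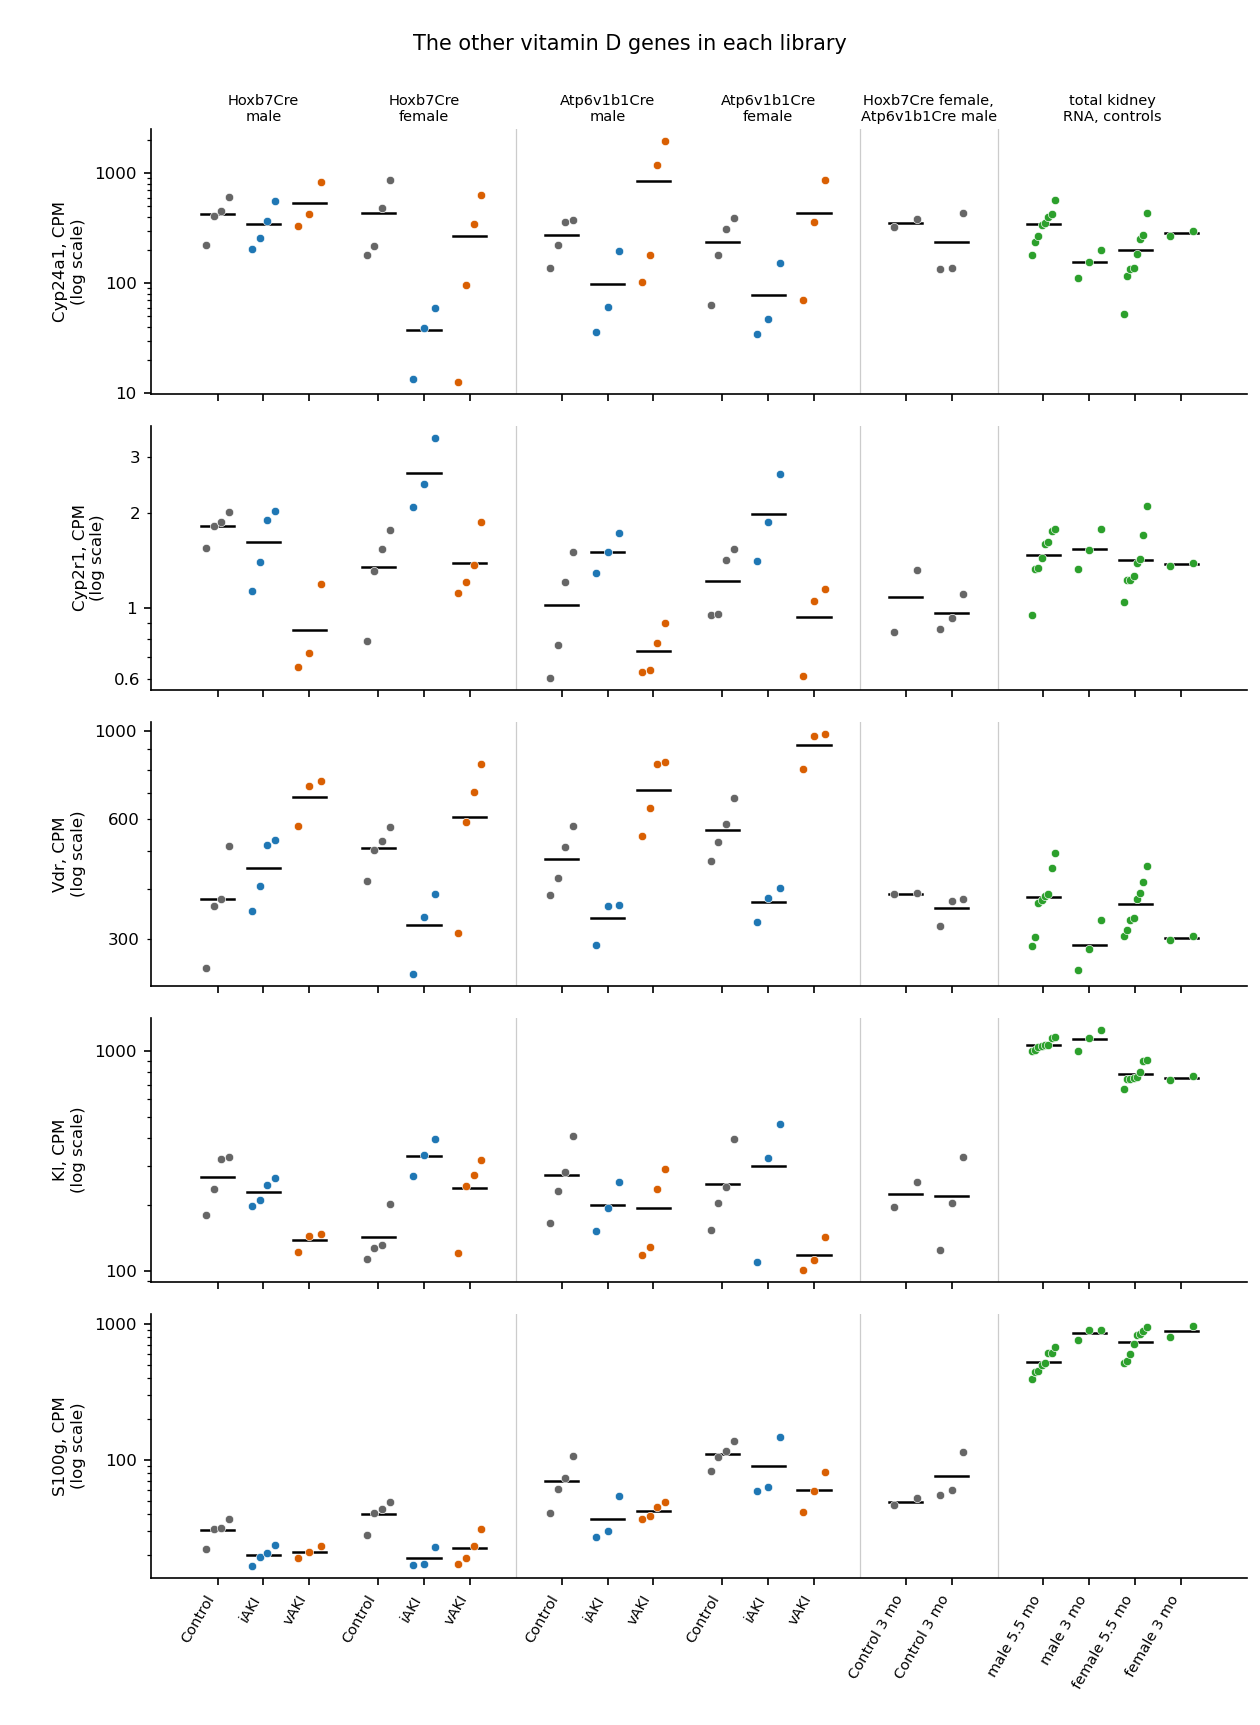
Levels (CPM, log scale) of Cyp24a1, Cyp2r1, Vdr, Kl and S100g in each library, grouped as for Cyp27b1, with bars at the group means. The mean of Vdr is highest in vAKI in both drivers, Kl and S100g are highest in total RNA, and Cyp24a1 spans 12.7 to 1944 CPM in the pulldowns.

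Counted together, the 5 genes tested in males gave no call in Hoxb7Cre iAKI, where 6.13% of all genes were called, and the unadjusted p was under 0.05 for 4364 genes in all and for S100g among the 5. DESeq2 also called none of the 5, among 2151 genes it called in the whole table. By edgeR the 5 genes gave 3 calls in Hoxb7Cre vAKI (Vdr up, Cyp2r1 and Kl down, and 1 to 3 with each library left out), against a background of 35.5%. Atp6v1b1Cre iAKI gave 1 (S100g down, background 8.51%) and Atp6v1b1Cre vAKI 2 (Vdr up, S100g down, background 14.6%). With each library left out these counts were 0 to 1 and 0 to 2. Between vAKI and iAKI there were 2 in Hoxb7Cre (Vdr and Cyp2r1, and 0 to 3 with each library left out) and 3 in Atp6v1b1Cre males (Cyp24a1, Vdr and Cyp2r1), where 33.3% and 29.3% of genes were called. In females the same 5 genes gave no call in Hoxb7Cre iAKI (background 3.14%), Hoxb7Cre vAKI (0.109%) or Atp6v1b1Cre iAKI (2.66%) by edgeR, where 5008, 1675 and 4264 genes of the table had an unadjusted p under 0.05 and DESeq2 called 4, 0 and 0 of the 5. They gave 1 in Atp6v1b1Cre vAKI (Vdr up, background 18.0%), 1 between vAKI and iAKI in Hoxb7Cre (Vdr, 3.78%) and 3 in Atp6v1b1Cre (Vdr, Cyp2r1 and Kl, 33.1%). With each library left out these counts were 0 to 3, 0 to 2 and 1 to 4.

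Differences between the drivers' responses in males were called for none of the 5 genes, with backgrounds of 7.79% for iAKI and 4.2% for vAKI and 4946 and 3991 genes at an unadjusted p under 0.05. The lowest adjusted p was that of Vdr in iAKI (Atp6v1b1Cre minus Hoxb7Cre −0.77 ± 0.28, adjusted p = 0.0949, interval −1.33 to −0.22), which DESeq2 called (−0.77, 0.0498) and which also passed without Control Hoxb7Cre replicate 2 (−0.96, 0.0352). Within libraries 1 to 40 the iAKI difference of Cyp24a1 (−3.07, adjusted p = 0.00304) and the vAKI difference of Kl (0.82, 0.0375) were called, and the latter also with the run of library numbers as a covariate (0.79, 0.0224). For Cyp27b1 the same differences, given without a test, were −0.84 ± 0.38 in iAKI and −1.08 ± 0.36 in vAKI. Between the sexes, Kl was the 1 gene of 5 called for the Hoxb7Cre vAKI response and none was for the Hoxb7Cre iAKI response (background 10.5%, 5761 genes at an unadjusted p under 0.05). For the Atp6v1b1Cre responses no gene of the whole table was called (0.0% in iAKI and 0.0% in vAKI, with 676 and 1756 genes at an unadjusted p under 0.05). All of these injury contrasts share their control libraries within a sex and driver.

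**Figure D4:**
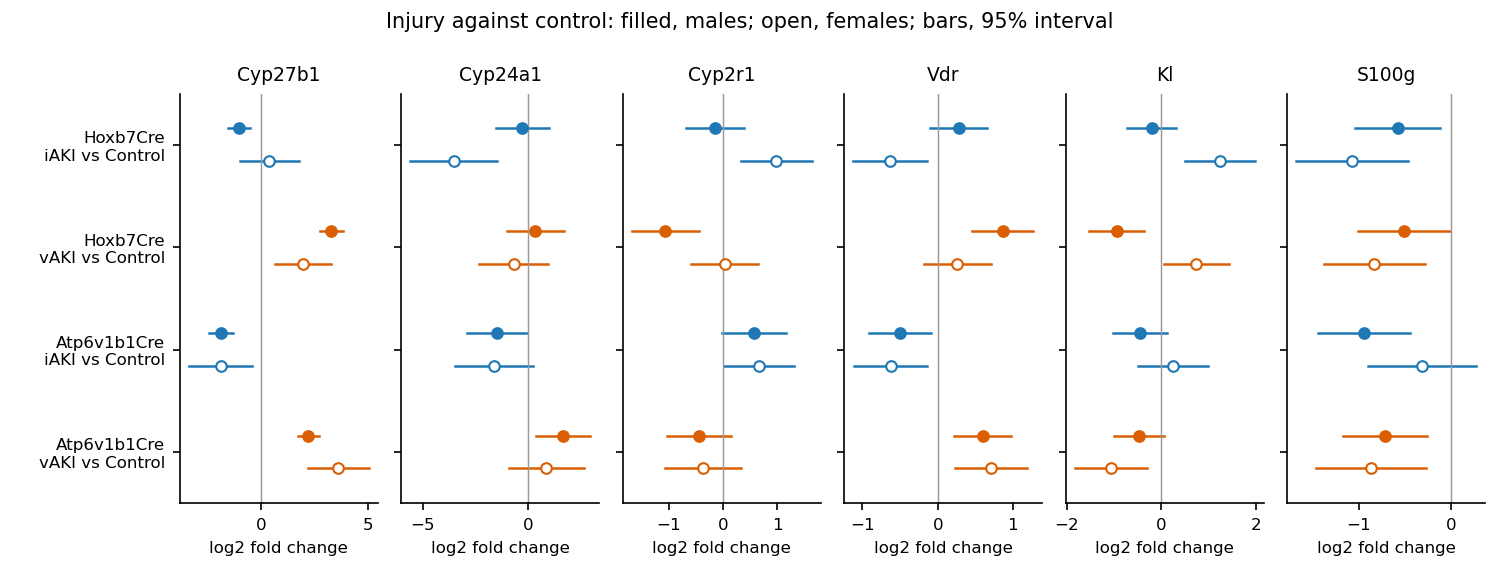
Log2 fold change of each gene against the controls of its driver and sex, with 95% intervals (1.96 SE), filled for males and open for females. Cyp27b1 was chosen for these values, which are 1.94 to 3.60 in vAKI over the 4 driver and sex groups, and the Kl value for vAKI in Hoxb7Cre is −0.94 in males and 0.73 in females.

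The wider pathway, chosen with earlier results of these data known, was taken as 71 distinct genes in 6 lists, chromosomal neighbors of Cyp27b1 not counted. It gave 11 calls in Hoxb7Cre iAKI males, 32 in Hoxb7Cre vAKI, 16 in Atp6v1b1Cre iAKI and 19 in Atp6v1b1Cre vAKI, which is 15.5%, 45.1%, 22.5% and 26.8% of the list beside the backgrounds of 6.13%, 35.5%, 8.51% and 14.6%. The list medians of the log2 fold change were 0.03, 0.09, −0.25 and 0.05, against a median of 0 over all genes. In females the 71 genes gave 3 calls in Hoxb7Cre iAKI, none in Hoxb7Cre vAKI, 3 in Atp6v1b1Cre iAKI and 19 in Atp6v1b1Cre vAKI, which is 4.23%, 0.0%, 4.23% and 26.8% beside backgrounds of 3.14%, 0.109%, 2.66% and 18.0%.

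Among 17 regulators of Cyp27b1 and Cyp24a1, 6 rose and 3 fell in Hoxb7Cre vAKI males and 4 rose and 2 fell in Atp6v1b1Cre vAKI males, while iAKI gave none up (1 and 3 down). The share called was 52.9% and 35.3% in vAKI, beside 35.5% and 14.6% of all genes, and 5.88% and 17.6% in iAKI, beside 6.13% and 8.51%. The transcription factors Cebpb (2.89 ± 0.49 and 2.06 ± 0.46), Nr4a2 (2.22 ± 0.52 and 2.48 ± 0.51) and Egr1 (2.09 ± 0.61 and 2.59 ± 0.59) led the rises in vAKI. All 3 also rose in Atp6v1b1Cre vAKI females, by 1.99, 2.66 and 3.68. None of the 17 was called in Hoxb7Cre vAKI females, where 0.109% of all genes were, against 18.0% in Atp6v1b1Cre vAKI females. In iAKI Cebpa fell in Hoxb7Cre males (−0.87 ± 0.18), and the FGF receptor Fgfr3 fell in Atp6v1b1Cre males (−1.10 ± 0.23) and females (−1.48 ± 0.30).

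Of the 4 genes that pass electrons to these P450 enzymes, the ferredoxin Fdx1, partner of the mitochondrial Cyp27b1 and Cyp24a1, rose in vAKI in Hoxb7Cre males (0.81 ± 0.24, adjusted p = 0.0105), Atp6v1b1Cre males (1.29 ± 0.23) and Atp6v1b1Cre females (1.61 ± 0.32). Por, the reductase of microsomal P450s such as Cyp2r1, rose in Hoxb7Cre vAKI males (1.21 ± 0.12) and fell in Atp6v1b1Cre iAKI males (−0.87 ± 0.13). In the list of 9 supply genes Cyp27a1, another vitamin D hydroxylase, was at −0.81 ± 0.20 in iAKI and 1.77 ± 0.21 in vAKI in Hoxb7Cre males and at −1.65 ± 0.22 in Atp6v1b1Cre iAKI males, all called. In Atp6v1b1Cre vAKI it was not called, at −0.13 ± 0.19 in males and 0.22 ± 0.41 in females, nor in Hoxb7Cre vAKI females (−0.38 ± 0.38). In iAKI females Cyp27a1 was not called either, at −0.85 ± 0.42 in Hoxb7Cre (adjusted p = 0.220) and −1.49 ± 0.43 in Atp6v1b1Cre (0.0609). In males the supply genes were called at 22.2% in Hoxb7Cre iAKI, Hoxb7Cre vAKI and Atp6v1b1Cre iAKI and 11.1% in Atp6v1b1Cre vAKI, beside 6.13%, 35.5%, 8.51% and 14.6% of all genes, so that both vAKI shares lay below the background. Of the 4 electron partners 2 were called in Hoxb7Cre vAKI, 1 in each Atp6v1b1Cre injury and none in Hoxb7Cre iAKI, beside the same backgrounds.

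Of 13 Vdr partners and coregulators, 3 rose and 3 fell in Hoxb7Cre vAKI males, Smarca4 (−1.10 ± 0.20) most, and 4 fell in Atp6v1b1Cre iAKI, Ncoa2 and Ncoa3 (both −0.71) most. That is 46.2% of the list beside 35.5% of all genes and 30.8% beside 8.51%, and none of the 13 was called in Hoxb7Cre iAKI or Atp6v1b1Cre vAKI males, beside 6.13% and 14.6%. Among 18 calcium transport and Vdr target genes, 4 rose and 3 fell in Hoxb7Cre vAKI and 2 rose and 5 fell in Atp6v1b1Cre vAKI males, 38.9% of the list in each beside backgrounds of 35.5% and 14.6%. The cell cycle inhibitor Cdkn1a rose in both (2.90 ± 0.32 and 1.43 ± 0.29), the calcium channel Trpv5 fell in both (−1.66 ± 0.36 and −1.32 ± 0.31), and its close relative Trpv6 rose in Atp6v1b1Cre vAKI males (1.78 ± 0.37) and females (2.04 ± 0.31). In iAKI the tight junction gene Cldn19 rose in all 4 driver and sex groups (1.28 to 1.66). Among 12 phosphate and FGF23 response genes, 7 rose and none fell in Hoxb7Cre vAKI males (58.3%, median 1.00) and 5 rose and none fell in Atp6v1b1Cre vAKI males (41.7%, median 0.04), beside backgrounds of 35.5% and 14.6%. In iAKI 4 rose and 1 fell in Hoxb7Cre males (41.7% beside 6.13%) and 1 rose and 1 fell in Atp6v1b1Cre males (16.7% beside 8.51%). In females 2 rose in Atp6v1b1Cre vAKI (16.7% beside 18.0%) and none of the 12 was called in Hoxb7Cre vAKI (0.109% of all genes), both near the background. The largest male values in vAKI were those of Spry4, a feedback inhibitor of FGF signaling, at 3.38 ± 0.29 and 1.39 ± 0.26 and the phosphate carrier Slc34a2 at 2.95 ± 0.51 and 1.93 ± 0.48. Egr1 belongs to both this list and the list of regulators above, so its rises in vAKI are counted in both shares.

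Finally, the genes whose log2 CPM followed each member most closely over the 48 pulldowns were found among 13929 genes with a mean of at least 1 CPM. The points share libraries, treatments and sex groups, so these coefficients describe and are not tested. Cyp27b1 was followed by Mettl21b (Pearson r = 0.875), Lss (0.870) and Bahcc1 (0.861), Cyp24a1 by Gad1 (0.825), Etv5 (0.821) and Extl1 (0.766), and Cyp2r1 by Tinag (0.739), Stap2 (0.737) and Tom1l1 (0.735). For Vdr, Lpin1 (0.835) and Pag1 (0.831) were among the closest. Kl was followed by Nbr1 (0.899), Cyb5b (0.894) and E430025E21Rik (0.890), and S100g by Oxgr1 (0.850), Slc15a1 (0.823) and Gm7325 (0.798).

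Mettl21b, which encodes a lysine methyltransferase, is separated from Cyp27b1 on chromosome 10 only by Mettl1, and it had the highest coefficient with Cyp27b1. It is a low gene, at 0.0958 to 6.41 CPM in pulldowns. Its mean over the 48 pulldowns, 1.35 CPM, passed the floor of 1 CPM only through vAKI, where Cyp27b1 is also high. In Atp6v1b1Cre and Hoxb7Cre its means were 2.98 and 2.68 CPM in vAKI, 0.895 and 0.695 CPM in controls, and 0.469 and 0.783 CPM in iAKI. Since Mettl21b was singled out for its likeness to Cyp27b1 over these libraries, its values are given with no test. In vAKI its log2 fold changes were 1.79 ± 0.31 in Hoxb7Cre males, 1.00 ± 0.30 in Atp6v1b1Cre males and 2.96 ± 0.56 in Atp6v1b1Cre females. In Hoxb7Cre vAKI females, where its levels of 0.803 to 3.39 CPM lay above all controls of 5.5 months (0.219 to 0.657 CPM), the value was 1.99 ± 0.54. The Hoxb7Cre iAKI females, at 0.697 to 1.24 CPM, also lay above those controls and overlapped vAKI. Only the control at 0.657 CPM shares the run of library numbers (1 to 40) with the injured Hoxb7Cre females. In iAKI the male values of Mettl21b were −0.91 ± 0.32 and −0.85 ± 0.35, and its female values 1.29 ± 0.60 in Hoxb7Cre and −0.46 ± 0.61 in Atp6v1b1Cre. Of the other 7 neighbors 2 were called in Hoxb7Cre vAKI males, Atp6v1b1Cre vAKI males and Atp6v1b1Cre vAKI females, beside 35.5%, 14.6% and 18.0% of all genes. Tsfm rose in these 3 groups (1.24 ± 0.13, 0.41 ± 0.12 and 1.09 ± 0.24), whereas Cdk4 fell in them (−0.51 ± 0.13, −0.44 ± 0.12 and −1.05 ± 0.19). Mettl1 and March9, which flank Cyp27b1, were not called in vAKI in any of the 4 groups.

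**Figure D5:**
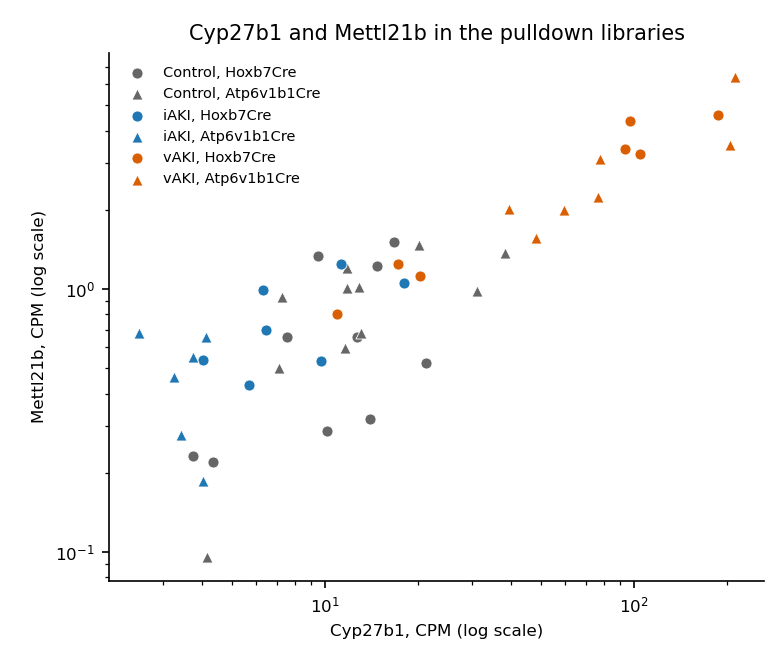
Cyp27b1 against its neighbor Mettl21b (CPM, log scales) in the 48 pulldown libraries, colored by treatment and shaped by driver. The 11 vAKI libraries with Cyp27b1 at 39.5 CPM or more have Mettl21b at 1.56 to 6.41 CPM.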

How the data were processed

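Biotinylated 4-TU RNA and total kidney RNA were sequenced from poly(A) libraries. Per the labels and the study's methods, the authors used CASAVA 1.8.2, Trimmomatic 0.36, STAR 2.5.3a and HTSeq 0.6.1p2 with mm10 to make the deposited table of raw counts per gene for 69 libraries. The gene annotation is not given in the sources used here. Groups come from the sample titles and from the labels' sex and age. Genes with at least 2 counts over all libraries were kept (21175 of 24411) and tested with edgeR 4.0.16 (TMM, quasi-likelihood, Benjamini-Hochberg over all genes) in R 4.3.3: males and females of 5.5 months separately, both sexes together for differences of responses, and controls with sex as a covariate. RPKM used GENCODE exon lengths. Intervals are 95% and cover the fitted spread only. The members and lists were chosen with earlier results of these data known, and a planned test of Cyp27b1 in injured females was dropped because the gene was chosen on its injury responses. List genes named are at most the 3 largest called changes per list and comparison with a mean of at least 10 counts, neighbors of Cyp27b1 aside. Deviations of same-numbered male libraries had mean correlations of −0.44 to 0.21, each over only 1 to 3 pairs. So few pairs cannot decide whether numbers pair mice, and they were not taken to do so. Female libraries were not checked in this way. Replicates within groups all differed beyond sampling noise in 121 pairs. Alternatives were DESeq2 1.42.0, other scalings, filters, samples and covariates. The tests were checked on simulated data. 1 gene among those most like Vdr is not reported here.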

Additional observations from a re-analysis of the deposited data

Results flagged for a closer look

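In Hoxb7Cre vAKI females, 1 Cyp27b1 value stood far from the rest: replicate 5 at 93.3 CPM, against 11.0 to 20.3 CPM in the other 3 libraries, a gap of 0.887 of the group's range. This was 1 of 54 groups of the 6 genes examined in this way, a rule that chance alone meets in about 5% of groups. In the same library Vdr, at 824 CPM, was the highest and Kl, at 121 CPM, the lowest of the 4.

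The response of Kl to vAKI in Hoxb7Cre mice differed between the sexes, by 1.67 on the log2 scale (female minus male, adjusted p = 0.0199, edgeR), 1 of 30 such differences tested. In males it was −0.94, a call that was lost without vAKI replicate 4 (−0.86, adjusted p = 0.0631), with the replicate block (−0.54, 0.0896) and with both sexes and sex as a covariate (−0.06, 0.930). In females it was 0.73 and not called (0.628), −0.10 with the block and 0.23 with the run of library numbers as a covariate, with 3 of the 4 controls from outside libraries 1 to 40. With that covariate, chosen after seeing the data, the sex difference was 1.59 (0.00373). Among the females, replicate 5 at 121 CPM lay within the range of 113 to 201 CPM of the 4 controls in the fit. The other 3 vAKI libraries, at 242 to 318 CPM, lay above that range. The Hoxb7Cre female controls of 3 months, which were not in the fit, had 196 and 253 CPM, the latter above the vAKI library at 242 CPM.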

How the results depend on the processing

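Of 1812 values with 1 library left out, 1700 kept their direction and side of the threshold, 63 lost and 34 gained a call, 13 changed sign and 2 values with no test moved by more than the spread. Of 918 under other alternatives the counts were 796, 29, 48, 32 and 13. The cause was not tested for any of them. Replicate number, which was not taken to pair mice, was also used as a block. Cyp27b1 was then −1.47 in iAKI and 2.62 in vAKI in Atp6v1b1Cre males and −3.49 in iAKI and 1.81 in vAKI in Atp6v1b1Cre females. The block reversed Cyp24a1 (0.48) and Kl (0.18) in Hoxb7Cre iAKI males, Cyp24a1 in Atp6v1b1Cre vAKI males (−0.072), the driver difference in vAKI of Cyp24a1 (−1.35) and Kl (−0.98), Vdr (−0.025) and Kl (−0.10) in Hoxb7Cre vAKI females, Kl in Atp6v1b1Cre iAKI females (−0.49) and Cyp24a1 in Atp6v1b1Cre vAKI females (−0.041). The block gave 1 call among the genes in Hoxb7Cre iAKI males, 0 in Atp6v1b1Cre iAKI males and 0 in Atp6v1b1Cre vAKI females, where it called 878, 0 and 0 genes of the whole table.

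With both sexes and sex as a covariate, Cyp27b1 was −0.38 in Hoxb7Cre iAKI, 2.75 in Hoxb7Cre vAKI and 2.98 in Atp6v1b1Cre vAKI, Hoxb7Cre iAKI gave 1 call, and these values reversed: Cyp2r1 (0.35), Vdr (−0.13) and Kl (0.41) in Hoxb7Cre iAKI, Cyp24a1 in Hoxb7Cre vAKI (−0.26), S100g between vAKI and iAKI in Atp6v1b1Cre (−0.23), and the driver differences of S100g in iAKI (0.21) and of Cyp27b1 (0.23), Vdr (0.10) and Kl (−0.62) in vAKI. With the male controls of 3 months, Cyp27b1 was −2.29 and 1.79 in Atp6v1b1Cre iAKI and vAKI. With the run of library numbers as a covariate (in females, both sexes and total RNA chosen after seeing the data), Kl was 0.038 between Atp6v1b1Cre vAKI and iAKI males and 0.017 for the driver difference in iAKI, Cyp27b1 was −0.22 in Hoxb7Cre iAKI females, Cyp2r1 was −0.15 in Hoxb7Cre vAKI females, and the age difference in total RNA was 0.11 for Cyp24a1 and −0.12 for Cyp2r1. The sex differences in the Hoxb7Cre iAKI response then passed for Kl (1.34), Vdr (−1.08) and Cyp24a1 (−4.00). The run covariate gave 1 call in Hoxb7Cre iAKI males, 2 in Atp6v1b1Cre iAKI males and 0 for age. In the whole table it called 3078, 2897 and 33 genes there. With libraries 1 to 40 alone, Cyp24a1 was 0.13 in Hoxb7Cre iAKI males, Kl 0.25 between Atp6v1b1Cre vAKI and iAKI males and the S100g driver difference in vAKI 0.028, with 1, 3 and 1 calls in Hoxb7Cre iAKI, Atp6v1b1Cre iAKI and Atp6v1b1Cre vAKI males. In those 3 comparisons 2318, 2761 and 1601 genes of the whole table were called.

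With only the groups compared in the fit, calls were 1 in Hoxb7Cre iAKI, 0 in Atp6v1b1Cre iAKI and 0 in Atp6v1b1Cre vAKI males, and 3 in Hoxb7Cre iAKI and 3 in Atp6v1b1Cre vAKI females. DESeq2 gave 4 in Hoxb7Cre iAKI and 3 in Atp6v1b1Cre vAKI females, 2 between the drivers' controls and 2 for age. The stricter count filter gave 1 in Hoxb7Cre iAKI females and 2 between the drivers, and no filter gave 0 in Atp6v1b1Cre vAKI females. Males alone gave 2 for Hoxb7Cre against total RNA and 2 between the drivers, with Kl at −0.10 there. Females alone gave −0.11 for Cyp2r1 in Hoxb7Cre and 0.19 for Cyp24a1 in Atp6v1b1Cre against total RNA, the latter 0.0017 at 5.5 months alone. The driver genotype as a term gave 0 calls for age, beside 168 in the whole table. Blocks of driver, sex, age and run of library numbers, added after seeing the data, put Cyp24a1 at 0.37 in Atp6v1b1Cre pulldowns against total RNA.

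With each library left out in turn, these ranges crossed 0: in males, Cyp24a1 in Hoxb7Cre vAKI (−0.15 to 0.58), S100g between Hoxb7Cre vAKI and iAKI (−0.021 to 0.16), Kl between Atp6v1b1Cre vAKI and iAKI (−0.28 to 0.16), and the driver differences of Kl in iAKI (−0.42 to 0.019) and S100g in vAKI (−0.39 to 0.061), and in females Cyp27b1 in Hoxb7Cre iAKI (−0.049 to 1.197), Cyp2r1 in Hoxb7Cre vAKI (−0.15 to 0.19), Kl in Atp6v1b1Cre iAKI (−0.21 to 0.66) and Cyp24a1 in Atp6v1b1Cre vAKI (−0.15 to 1.37). Cyp27b1 in Hoxb7Cre vAKI females ranged from 0.79 to 2.77. Over all alternatives the number of genes called in the whole table ranged, in males, from 488 to 3078 (1298 as reported) in Hoxb7Cre iAKI, 2704 to 8904 (7521) in Hoxb7Cre vAKI, 0 to 3991 (1803) in Atp6v1b1Cre iAKI and 1091 to 6409 (3086) in Atp6v1b1Cre vAKI, and in females from 0 to 2958 (665) in Hoxb7Cre iAKI, 0 to 1777 (563) in Atp6v1b1Cre iAKI and 0 to 4891 (3815) in Atp6v1b1Cre vAKI, and with each library left out from 1 to 96 (23) in Hoxb7Cre vAKI.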
